A study of Drosophila melanogaster with 36 samples.

Results

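The females of the inversion strains INV1 and INV2 were compared with the females of their parental strain REC in Drosophila melanogaster. These 9 arrays (3 for each strain, replicates A, B and C) were chosen by the strain and sex that the labels give, out of 36 arrays of 6 strains and both sexes. Every sample was RNA of 50 virgin flies aged 5 to 7 days. REC carried a pair of inserted transposable elements with recombination sites on one chromosome, in the arrangement that precedes the inversion, and its ultraconserved region was intact. INV1 and INV2 carried an inversion on chromosome arm 2R that breaks the ultraconserved region, a stretch of genes whose order has been kept across fruit fly species. The inversion was made by recombination between the elements with a heat-inducible recombinase. All 3 strains have red eyes and were kept homozygous. REC predates the heat shocks, and in the INV strains the eye colour reporter was rebuilt at a breakpoint, so the disruption, the state of the inserts and the history of the strains cannot be told apart in this comparison. The white-eyed strains, all with an intact region, were SIM1 (exposed to the same treatment, with failed recombination) and REV1 and REV2 (inversions turned back). Their females enter the estimate of the spread and are given beside the results.

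A chromosomal inversion reverses the order of a segment, and the genes inside it keep their own sequence while those next to a breakpoint gain new neighbours. Where distant regulatory sequences or a chromatin domain serve several genes, a break between them can change how those genes are read. INV1 and INV2 are separate strains with the same inversion. The contrast of each with REC gives its difference from the parental strain, and the contrast between them gives the difference between strains of the same arrangement.

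The deposited file lists 16637 transcripts with a linear fluorescence intensity on each array, here used as log2. On the female arrays the intensities ran from 135.4 to 50883 with a median log2 of 10.39, and ranked values differed by at most 0.976% between arrays. Values made this alike before deposit cannot show whether an array deviated in its distribution of intensities. Within strains, the median log2 SD of the 3 arrays was lowest in REC females at 0.07, followed by 0.08 in INV1 and 0.10 in INV2, and the white-eyed strains had 0.08 to 0.12. The median half-width of a 95% interval for the difference between any pair of these strains was 0.19. Transcripts are listed by FlyBase identifier without gene names. A gene table paired 44 of them (0.264%) with gene symbols. The genes of the ultraconserved region, and genes of eye pigment, vision, ovary, testis, immunity and the heat shock response, are therefore not analysed here, and which tissues carried a difference was not measured. In whole flies, a change in the amount of a tissue and a change of RNA per cell cannot be told apart.

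Most transcripts differed little between REC and INV females. The mean of INV1 and INV2 differed from REC by 0.097 on the log2 scale in the median of all transcripts, sign aside. A transcript is called here when its limma p, after Benjamini-Hochberg adjustment, is under 0.01. Of the 16637, 293 were called (1.76%), 81 of them higher in INV (0.487%) and 212 lower (1.27%), and 4360 had an unadjusted p under 0.05. The 293 had a median size of 0.48, and 19 exceeded a 2-fold difference, all of them lower in INV. In 281 of the 293, none of the 6 INV arrays overlapped the 3 REC arrays. The calls rest on the same arrays, so this adds no support of its own, and the share over all transcripts was not taken. A 2-group one-way comparison of the same arrays was run here after the test that the methods name, and it does not repeat the authors' run. With the spread of each transcript taken from its own values, it called 2 transcripts, FBtr0082287 and FBtr0290328. The second, chosen after its values were seen, is not among the 293, with a log2 difference of 0.31 (limma adjusted p = 0.0138).

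FBtr0082287 had the largest difference between REC and INV females. Its log2 intensity was 11.68, 11.68 and 11.74 on the REC arrays, 8.78, 8.96 and 8.90 on the INV1 arrays, and 8.76, 8.77 and 8.64 on the INV2 arrays. REC thus stood apart from both inversion strains by far more than the arrays of any strain differed. The log2 difference from REC was -2.82 in INV1 (standard error 0.0774, limma adjusted p = 9.14e-13) and -2.98 in INV2 (standard error 0.0774, limma adjusted p = 3.84e-13), a fold of 7.07 and 7.88. The difference between the inversion strains was -0.16, with a 95% interval of -0.32 to 0.01. White-eyed females, whose region is intact, had values of 8.32 to 8.91, next to those of INV and not to those of REC. In males the transcript was at 7.93 to 8.37 in all 6 strains, and REC males overlapped with INV males. The REC level in females was therefore the single high level among the 12 combinations of strain and sex.

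FBtr0100095 had the second largest difference among called transcripts lower in INV with no overlap of arrays. It had a log2 intensity of 11.86, 11.95 and 11.90 in REC, 10.80, 10.43 and 10.91 in INV1, and 9.75, 10.30 and 9.26 in INV2, with no overlap between the strains. Its difference from REC was -1.19 in INV1, which was not called (limma adjusted p = 0.0562), and -2.14 in INV2 (standard error 0.286, limma adjusted p = 0.000379). The step from INV1 to INV2, -0.94, missed the threshold (limma adjusted p = 0.109). SIM1 females lay between REC and INV1 (11.14 to 11.39), and the REV females spread from 10.56 to 11.79. The call for the mean of INV1 and INV2 (-1.66, limma adjusted p = 0.00152) was lost without REC A or REC B.

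The largest transcripts higher in INV were FBtr0074052 and FBtr0079028. FBtr0074052 had values of 10.19, 10.19 and 10.21 in REC, 10.94, 10.79 and 10.85 in INV1, and 11.17, 10.81 and 10.88 in INV2, a difference of 0.66 in INV1 (limma adjusted p = 0.00363) and of 0.75 in INV2 (limma adjusted p = 0.000161). FBtr0079028 had values of 9.88, 9.97 and 10.08 in REC, 10.47, 10.54 and 10.64 in INV1, and 10.82, 10.65 and 10.77 in INV2, a difference of 0.58 in INV1 (limma adjusted p = 0.00613) and of 0.77 in INV2 (limma adjusted p = 0.00011). Both strains rose above REC by a similar amount in each case. The differences between INV2 and INV1 were 0.09 (95% interval -0.10 to 0.28) and 0.19 (0.01 to 0.38), and neither was called. The INV1 call of FBtr0074052 was lost without any one of the REC or INV1 arrays (limma adjusted p up to 0.0700 over all settings). The white-eyed females, whose region is intact, were also above REC on every array in both, at 10.45 to 10.95 for FBtr0079028 and at 10.29 to 10.97 for FBtr0074052.

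**Figure D1:**
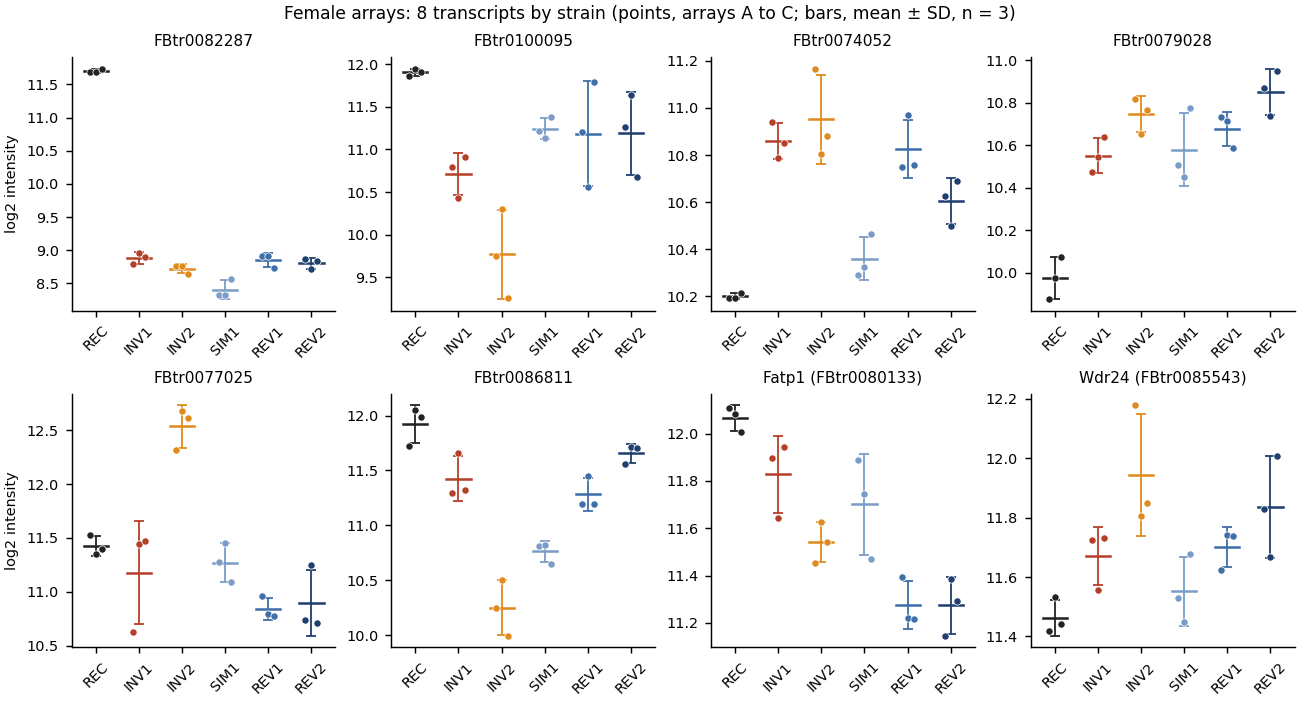
Log2 intensity of 8 transcripts on the 18 female arrays by strain, each panel with its own axis range. Points are arrays A, B and C, and bars are the mean ± SD (n = 3). REC stands alone at 11.68 to 11.74 in FBtr0082287, INV2 stands alone at 12.31 to 12.68 in FBtr0077025, and INV1 lies between REC and INV2 in the means of Fatp1 and Wdr24.

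Taken strain by strain, the contrast of INV2 with REC gave many more calls than that of INV1. INV1 minus REC called 28 transcripts (0.168%), 13 higher in INV1 and 15 lower, and 2269 had an unadjusted p under 0.05. INV2 minus REC called 690 (4.15%), 227 higher in INV2 and 463 lower, and 5460 had an unadjusted p under 0.05. Both contrasts use the same 3 REC arrays, so values of the 2 contrasts are given side by side and their likeness is not a result. More than 2-fold differences were found in 3 of the 28 transcripts, all lower in INV1, and in 65 of the 690, 2 higher and 63 lower in INV2. In none of the 28 or the 690 did the arrays of the inversion strain overlap those of REC. As above, the calls rest on the same arrays and the share over all transcripts was not taken, so this adds no support to them. Over all 16637 transcripts, the median size of the difference was 0.079 for INV1 and 0.13 for INV2, and 202 and 827 transcripts differed by over 0.5.

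The test of whether the contrasts with REC differ is INV2 minus INV1. It does not use the REC means, though the REC arrays enter its estimate of the spread. It called 27 transcripts (0.162%), 17 with less signal in INV2 and 10 with more, and 2979 had an unadjusted p under 0.05. The called differences had a median size of 0.75. The larger number of calls for INV2 thus went with a called difference between the inversion strains in 12 of the 293 transcripts, in 20 of the 690 and in 1 of the 28. Among the 212 transcripts lower in INV, the median difference from REC was -0.42 in INV1 and -0.71 in INV2, and INV2 was below INV1 in 189. In the 81 transcripts higher in INV, the medians were 0.37 and 0.42, and INV2 was farther from REC than INV1 in 52. The 463 transcripts called lower in INV2 had a median of -0.59 there and of -0.28 in INV1, and the 227 called higher had 0.44 and 0.19. In these lists INV2 was the strain that chose the members. In the list that INV1 chose, the 15 lower transcripts had a median of -0.67 in INV1 and of -0.63 in INV2, and the 13 higher ones had 0.53 and 0.36.

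**Figure D2:**
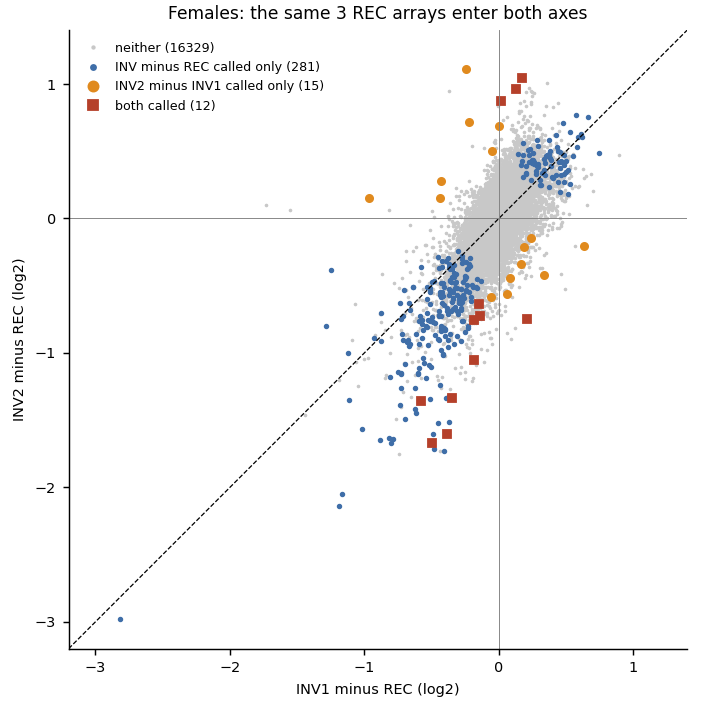
Log2 difference of INV1 from REC (x axis) and of INV2 from REC (y axis) for each of 16637 transcripts in females, with the line of equal differences dashed. The same REC arrays enter both axes, which by itself draws the points toward the line. Blue points are called for INV minus REC only (281), orange points for INV2 minus INV1 only (15) and red squares for both (12), and FBtr0082287 lies alone at the lower left at -2.82 and -2.98.

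Some transcripts differed from REC in one inversion strain only, with a called difference between INV1 and INV2. FBtr0077025 was at 11.53, 11.35 and 11.40 in REC and at 10.63, 11.44 and 11.47 in INV1, which overlapped, and at 12.31, 12.68 and 12.61 in INV2. INV2 was 1.11 above REC (standard error 0.188, limma adjusted p = 0.00188) and 1.35 above INV1 (standard error 0.188, limma adjusted p = 0.00209). The INV2 values were also above all white-eyed females (10.71 to 11.45), so that INV2 stood apart from INV1, which has the same inversion, and from all others. The difference between the inversion strains was not called without INV2 B or INV2 C, nor that from REC without REC B. FBtr0076387 had a like order of strains, with 9.97, 9.49 and 9.90 in REC, 9.94, 10.15 and 9.78 in INV1, and 10.89, 10.82 and 10.78 in INV2, and a difference between INV2 and INV1 of 0.87 (limma adjusted p = 0.00199).

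Lower levels in INV2 were seen in FBtr0086811 and FBtr0083658. FBtr0086811 was at 11.73, 12.05 and 11.98 in REC, 11.29, 11.66 and 11.32 in INV1, and 10.25, 10.50 and 9.995 in INV2. INV2 differed from INV1 by -1.18 (standard error 0.127, limma adjusted p = 0.000202), while INV1 differed from REC by -0.50 (limma adjusted p = 0.0705). FBtr0083658 was at 10.35, 10.48 and 10.63 in REC, 9.97, 10.39 and 9.95 in INV1, and 8.81, 9.14 and 8.69 in INV2, a difference between the inversion strains of -1.22 (limma adjusted p = 0.00712). In both, SIM1 females were closer to INV2 than REV2 females were, with 10.65 to 10.82 and 9.09 to 10.12 in SIM1 against 11.56 to 11.71 and 10.24 to 10.42 in REV2. The FBtr0083658 call was lost in 15 of 29 other settings, among them each INV1, INV2 or REC array left out (limma adjusted p up to 0.223 over all 29).

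FBtr0085450, FBtr0076525 and FBtr0072951 were named for calls that involve INV1. FBtr0085450 had values of 11.49, 11.26 and 10.80 in REC, 10.19, 10.13 and 10.33 in INV1, and 11.23, 11.37 and 11.40 in INV2, a step of 1.11 from INV1 to INV2 (standard error 0.162, limma adjusted p = 0.00279). INV2 overlapped with REC, all white-eyed arrays (10.61 to 11.32) were above INV1, and INV1 minus REC was not called (-0.96, limma adjusted p = 0.0109). The step between the inversion strains was no longer called without any one of the INV1 or INV2 arrays (limma adjusted p up to 0.107 over all settings). FBtr0076525 had a difference between INV1 and REC of -1.25 (standard error 0.148, limma adjusted p = 0.000992), at 11.57, 11.42 and 11.95 against 13.09, 12.996 and 12.61, while INV2 was at 12.41, 12.51 and 12.63 and overlapped REC. Its difference between the inversion strains, 0.87, missed the threshold (limma adjusted p = 0.0113). White-eyed females ran from 11.92 to 13.14, with REV2 A below INV1 C, and the INV1 call was lost without REC A or REC B. FBtr0072951 rose in INV1 by 0.74 (limma adjusted p = 0.00613), from 10.33, 10.17 and 10.02 in REC to 10.98, 10.70 and 11.07, and the INV2 values of 10.72, 10.75 and 10.52 lay 0.49 above REC (limma adjusted p = 0.0114). White-eyed females were at 9.93 to 10.31, below every inversion array. This INV1 call was lost without each REC array and without INV1 A or C (limma adjusted p up to 0.149 over all settings).

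In the 17 transcripts lower in INV2 than in INV1, REC was nearer to INV1 in 15, and in the 10 higher in INV2 it was nearer to INV1 in 7. Over all transcripts REC was nearer to INV1 in 69% of them. The males of these strains, which share no array with the females, were measured in the same way. Of the 17, 13 were lower in INV2 than in INV1 males as well, with a median male difference of -0.63, and of the 10, 9 were higher in INV2 males, with a median of 0.17. Over all transcripts 50.3% were lower in INV2 males. Male replicates A and B of INV1 are among 4 male arrays (with REC B and SIM1 C) that deviated alike from the others of their strain. Without these INV1 arrays and REC B, which leaves 1 INV1 array in males, 14 of the 17 were lower (median -0.25) and 7 of the 10 higher (0.45).

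The 44 transcripts that could be tied to genes were brighter than most, with a median log2 level of 12.38 against 10.38 over all transcripts, and many carry a pair of reading frames, so that one identifier then names both genes. By limma, 0 of the 44 were called for INV minus REC (1.76% of all transcripts), 0 for INV1 minus REC (0.168%), 2 for INV2 minus REC (4.15%) and 0 for INV2 minus INV1 (0.162%). At an adjusted p under 0.05 the counts were 3, 0, 9 and 0 of the 44, and 1398, 191, 2540 and 206 of the 16637. So few members at these shares say nothing particular of the 44. The median size of INV2 minus REC was 0.11 in the 44 and 0.13 over all transcripts. Of the 44, 11 lie on arm 2R, the arm of the inversion, where in that arm was not determined. Their INV minus REC differences lay between -0.16 and 0.16, and 0 were called in the contrasts with REC, which at shares of 1.76%, 0.168% and 4.15% over all transcripts is no result about the arm.

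The calls in INV2 females were Fatp1 and Wdr24. Fatp1 (FBtr0080133), a fatty acid transport protein that takes long-chain fatty acids into cells, was at 12.11, 12.08 and 12.01 in REC, 11.90, 11.64 and 11.94 in INV1, and 11.46, 11.63 and 11.54 in INV2. It fell by 0.53 in INV2 (standard error 0.103, limma adjusted p = 0.00443), and INV1 differed by -0.24 (limma adjusted p = 0.309). All 9 white-eyed arrays, at 11.15 to 11.89, were below REC. Wdr24 (FBtr0085543), a subunit of the GATOR2 complex that relays amino acid supply to the growth regulator TORC1, was at 11.42, 11.53 and 11.44 in REC, 11.72, 11.56 and 11.73 in INV1, and 12.18, 11.80 and 11.85 in INV2. It rose by 0.48 in INV2 (standard error 0.101, limma adjusted p = 0.00661), and INV1 differed by 0.21 (limma adjusted p = 0.386). White-eyed females ran from 11.45 to 12.01 and overlapped with REC and INV. Both calls were lost without replicate A or C of INV2 and without each REC array, with limma adjusted p up to 0.19 for Fatp1 and 0.121 for Wdr24 over all settings.

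Others of the 44 did not pass the threshold and are given as values, chosen after they were seen. LanA (FBtr0077014), the alpha chain of laminin in basement membranes, was at 12.21, 12.29 and 12.16 in REC, 12.01, 12.06 and 12.07 in INV1, and 11.62, 11.64 and 11.74 in INV2, a difference of -0.55 in INV2 (limma adjusted p = 0.0130). The strains did not overlap in it. Another GATOR2 subunit, mio (FBtr0077835), was at 11.04, 11.14 and 11.22 in REC, 11.44, 11.21 and 11.30 in INV1, and 11.44, 11.45 and 11.27 in INV2, and its difference in INV2 was 0.26 (limma adjusted p = 0.0431). This adjusted p was the largest of the 9 of the 44 under 0.05 in INV2. In males INV2 minus REC was -0.05 for mio and -0.39 for Wdr24, neither of them called. Also under 0.05 in INV2 females were CG10570 with CG42502 (-0.46) and moi with Tgs1 (0.39). So were CG42488 with CG5116 (0.30) and Polr3K with Tcs1 (0.25). The transcript of CG7950 and Rpp14a (FBtr0085563), the latter a protein of the tRNA-processing enzyme RNase P, differed by 0.33 in INV2 (limma adjusted p = 0.0120), with 11.04, 10.96 and 11.04 in REC against 11.46, 11.26 and 11.31. For alpha-Spec (FBtr0072789), a protein of the membrane skeleton, the differences from REC were 0.21 in INV1 and -0.03 in INV2. The histone gene His4r (FBtr0082962) had -0.13 and -0.08, and the deacetylase HDAC3 (FBtr0078767) had 0.10 and 0.07. Uba1 (FBtr0088499), the enzyme that activates ubiquitin, had 0.10 and 0.18.

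The transcripts called between INV and REC were mostly of middle intensity. The median log2 level was 10.41 in the 212 lower, 10.37 in the 81 higher and 10.38 over all transcripts. Of the 212, 8 (3.77%) were among the dimmest 25% of transcripts and 19 (8.96%) among the brightest 25%, and of the 81, 1 and 6. Sex difference, which the contrast did not use, was measured as male minus female in the white-eyed strains. Its median was 1.08 in the 212 and 1.10 in the 81, against 0.39 over all transcripts in the values as deposited. Of the 212, 84% were higher in males, against 60.9% of all transcripts. Scaling all 36 arrays to one median moved the median of all transcripts to -0.10, that of the 212 to 0.48 and that of the 81 to 0.53, with 71.7% of the 212 and 46.6% of all transcripts higher in males. Of the 81 as deposited, 41 (50.6%) were more than 2-fold higher in males and 22 (27.2%) in females, against 31.7% and 18.7% of all transcripts. After scaling these were 33 (40.7%) and 31 (38.3%), against 19.5% and 31.4%. All transcripts thus had both parts as well. The share of the 212 over 2-fold higher in males, 54.2% against 31.7% of all transcripts as deposited, became 17% against 19.5% after scaling.

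The lists of INV2 alone separated by sex more clearly. The 227 transcripts higher in INV2 than in REC had a median male minus female difference of -1.06, and 117 of them (51.5%) were over 2-fold higher in females, against 18.7% of all transcripts. After scaling the median was -1.63 and the shares were 65.2% and 31.4%. The 463 lower in INV2 had a median of 1.10, or 0.51 after scaling, with 87.7% higher in males, or 75.2%. The share of transcripts with higher levels in females was thus larger among those higher in INV2 than over all transcripts in both scalings, which is a description with no test. The short lists of INV1 did not separate in this way. The 13 higher in INV1 had a median of 1.54, or 0.93 after scaling, and the 15 lower had 0.22, or -0.35.

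**Figure D3:**
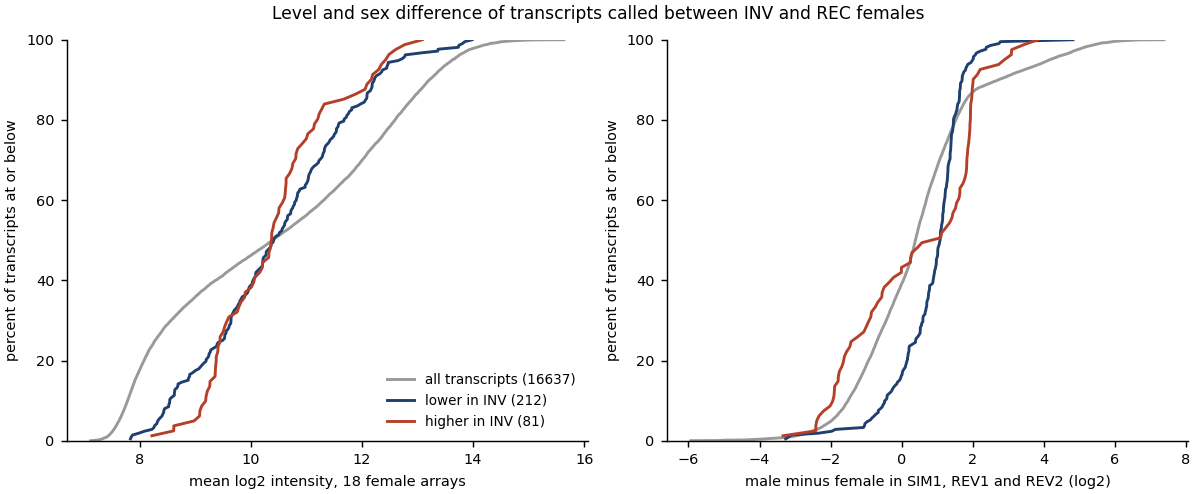
Cumulative share of transcripts (y axis, percent) by mean log2 intensity over the 18 female arrays (left) and by the male minus female difference in SIM1, REV1 and REV2 in log2 as deposited (right). Grey is all 16637 transcripts, blue the 212 lower in INV and red the 81 higher in INV. Both called groups are scarce among the dimmest and the brightest transcripts, and the blue curve lies right of the grey one from about -2 to its median of 1.08.

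White-eyed females were set beside the called transcripts. These values share the REC arrays with the contrast that chose the transcripts, so that a distance from REC is in part fixed by the choice. The median of the 212 relative to REC was -0.42 to -0.40 on the INV1 arrays and -0.74 to -0.63 on the INV2 arrays. It was -0.24 to -0.17 on the SIM1 arrays, -0.58 to -0.48 on the REV1 arrays and -0.68 to -0.58 on the REV2 arrays. REV1 and REV2 have an intact region and were as far from REC as the INV strains, whereas SIM1, also intact, was nearest. For the 81 the medians were 0.35 to 0.37 in INV1, 0.38 to 0.49 in INV2, 0.06 to 0.14 in SIM1, 0.22 to 0.26 in REV1 and 0.25 to 0.41 in REV2. The white-eyed mean was nearer to INV than to REC in 192 of the 212 and in 48 of the 81, against 60.1% of all transcripts. These counts take the mean of SIM1, REV1 and REV2, of which SIM1 lay nearer to REC than the others. Since the REC arrays helped to choose the transcripts, no conclusion is drawn from the counts.

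**Figure D4:**
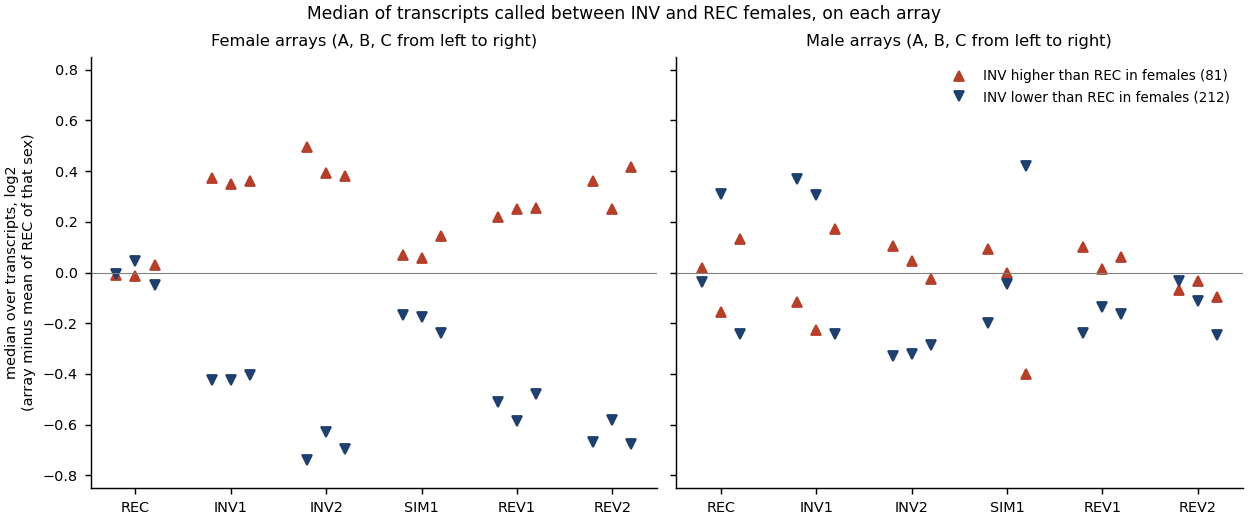
Median over the transcripts called lower (212, blue) and higher (81, red) in INV than in REC females, on each female (left) and male (right) array, in log2 relative to the mean of REC of that sex. In females INV2, REV1 and REV2 arrays lie farthest from REC in the lower group and SIM1 arrays nearest, and in males the deviating arrays (REC B, SIM1 C and both A and B of INV1) lie above 0 in the lower group and below 0 in the higher one.

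Few transcripts were called between the same strains in males, which does not show that few differed. The median size of INV minus REC over all transcripts was 0.105 in males and 0.097 in females. For INV2 minus REC it was 0.21 in males and 0.13 in females. For INV minus REC, 2 male transcripts were called (0.012%) and 798 had an unadjusted p under 0.05. The median SD between male arrays was 0.19 in REC and 0.24 in INV1, above the female values, and 0.10 in INV2, as in its females. REC and INV1 hold the deviating male arrays. The male calls were FBtr0086479 and FBtr0273346. FBtr0086479 was also called in females, and was taken up because earlier results of these data show it low in red-eyed flies. In females it was at 7.62, 7.59 and 7.76 in REC, 8.11, 8.10 and 8.11 in INV1, and 8.18, 8.09 and 8.18 in INV2, 0.48 higher in INV (standard error 0.0645, limma adjusted p = 0.000829), against 10.39 to 11.08 in white-eyed females. In males the difference was 0.87 (limma adjusted p = 0.000423). FBtr0273346, chosen after its values were seen, had a difference of -0.68 in males (limma adjusted p = 0.0045), and its female difference of -0.19 was not called (limma adjusted p = 0.0639).

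FBtr0070490, taken up for the opposite pattern, is high in red-eyed flies. It was at 11.62, 11.55 and 11.52 in REC females, 12.09, 12.03 and 12.07 in INV1, and 12.001, 11.95 and 11.77 in INV2, against 9.32 to 9.99 in white-eyed females. INV exceeded REC by 0.42 (standard error 0.0626, limma adjusted p = 0.00144). The call was lost without REC B or REC C (limma adjusted p up to 0.369 over all settings), and that of FBtr0086479 without REC B (up to 0.0216). The male difference of FBtr0070490 was -0.04, with REC males between 12.61 and 13.99, and 0.30 without the 3 deviating male arrays. In both of these transcripts, which follow eye colour in opposite directions, every inversion female was above every REC female.

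Whether INV minus REC differed between females and males was tested by the interaction term of a limma fit to the 36 arrays. It called 5 transcripts (0.0301%), and 1 to 11 with each of the 36 arrays left out, and 2435 had an unadjusted p under 0.05. FBtr0082287 had an INV minus REC difference of -2.90 in females and of -0.16 in males (difference -2.74, limma adjusted p = 4.98e-17). FBtr0074052 had 0.71 and -0.12 (limma adjusted p = 0.00269) and FBtr0079028 had 0.67 and -0.08 (limma adjusted p = 0.00337). The other 2, chosen after their values were seen, were FBtr0073714, at -1.23 and 0.18 (limma adjusted p = 0.0041), and FBtr0112531, at -1.21 and 0.53 (limma adjusted p = 0.00698). The male strain means were low, at 8.03 to 8.32 for FBtr0074052 and 8.78 to 9.07 for FBtr0079028. The lowest female strain means, those of REC, were 10.20 and 9.98. Whether a low signal in males limits the male difference was not tested. Without the male arrays REC B and both INV1 A and B, FBtr0082287 alone was called (-2.68, limma adjusted p = 4.37e-14).

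The female and male differences were also set side by side over the 16637 transcripts, which are no replicates of a condition and share the arrays of each sex. Pearson's correlation was -0.04 for INV minus REC, -0.23 for INV1 minus REC, 0.12 for INV2 minus REC and 0.16 for INV2 minus INV1. Without those 3 male arrays the values were -0.02, 0.17, -0.07 and 0.16, so the sign for each strain against REC turned with the choice of male arrays, and that between the inversion strains did not. The 212 transcripts had a median male difference of -0.08, and 144 were lower in INV males, against 52.7% of all transcripts. Without the 3 arrays the values were -0.10 and 147. The 81 had -0.02, with 42 lower, and 0.01 and 39 without them. Between INV2 and INV1 males, 184 of the 212 were lower in INV2 with all arrays (median -0.43) and 116 without the 3 (median -0.02). On the deviating male arrays the median of the 212 was 0.31 in REC B, 0.37 in INV1 A, 0.31 in INV1 B and 0.42 in SIM1 C, and between -0.33 and -0.03 on the other 14. Over all transcripts, the female INV minus REC difference had a Pearson correlation of -0.36 with male INV1 A and B minus C, of -0.36 with male REC B minus A and C, and of -0.34 with male SIM1 C minus A and B. Female transcripts lower in INV thus tended to be those raised on the deviating male arrays, a description in which transcripts are no replicates.

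The number of calls in females rested on single arrays. INV minus REC called 52, 27 and 103 transcripts when REC A, REC B or REC C was left out, 175, 191 and 169 without those of INV1, and 470 without REV2 B. For INV1 minus REC the counts were 4, 2 and 7 without the REC arrays and 7, 6 and 8 without the INV1 arrays. For INV2 minus REC they were 213, 160 and 330 without the REC arrays, 291 and 384 without INV2 A and C, and 1050 without REV2 B. INV2 minus INV1 called 16, 16 and 14 without the INV1 arrays, 11, 15 and 17 without the INV2 arrays, 43 without REV1 A, 60 without REV2 A and 48 without SIM1 C. Leaving out an array of a compared strain also takes away part of the replication of that strain. For INV minus REC, FBtr0082287, FBtr0074052 and FBtr0079028 were called with each of the 18 arrays left out in turn.

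**Figure D5:**
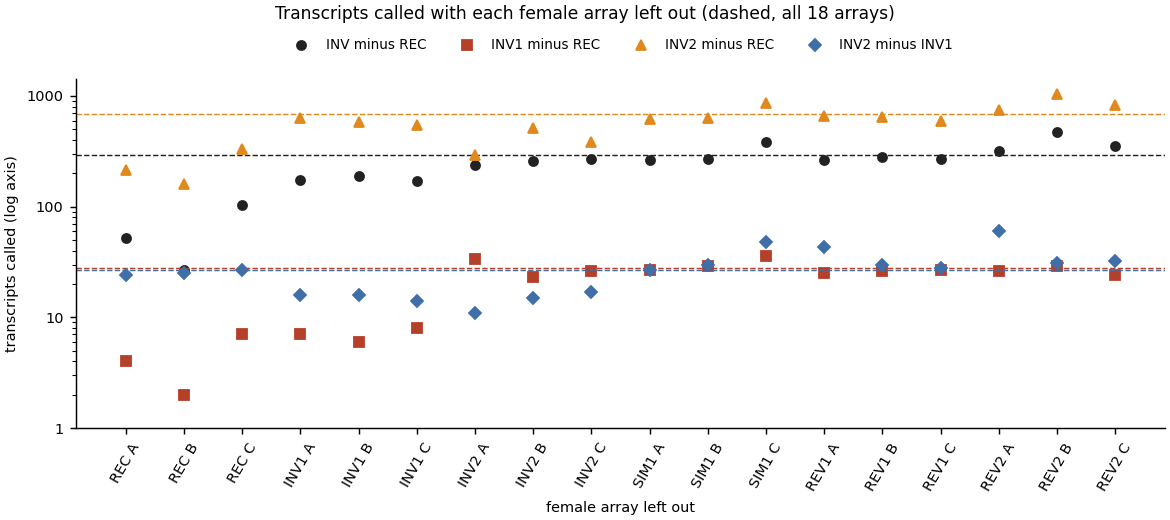
Number of transcripts called (log axis) for each of the 4 contrasts with each of the 18 female arrays left out in turn (x axis), and with all arrays (dashed lines at 293, 28, 690 and 27). The lowest counts of the contrasts with REC are those without REC B, at 27, 2 and 160.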

How the data were processed

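RNA of 50 virgin flies per sample was hybridized to one-colour NimbleGen arrays that follow annotation release 5.7. By the methods, the array maker labelled, hybridized and scanned the samples. The authors summarized probes as a median of log values per transcript and applied limma's scale normalization. Background correction, and the step that gave the arrays of a sex nearly equal distributions, are not given in the sources used here. The values the authors deposited are linear intensities, which were converted to log2 with no further normalization and no filter. Strain, sex and replicate letter came from the labels.

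The 18 female arrays were fitted in limma 3.58.1 (R 4.3.3; lmFit, eBayes), with 1 mean per strain, and p-values were adjusted over all 16637 transcripts by Benjamini-Hochberg. Males were fitted alone in the same way. The interaction with sex used all 36 arrays. INV is the mean of INV1 and INV2. Per the methods the 3 arrays of a strain and sex are biological replicates, from 3 crosses for the strains. The letters did not pair the arrays. Fits were run on simulated data with independent errors, which cannot show how deviations shared between arrays affect the calls. Descriptions and plots used Python 3.11.15.

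Named were, per contrast, at most 2 identifiers per direction with the largest difference among called transcripts without overlap of arrays, every called transcript in the gene table (Release 6), and FBtr0086479 and FBtr0070490. Gene lists were to be used where 80% of their genes matched, which none did. Members, lists and tests were chosen with earlier results of these data known. Alternatives were other normalizations, a filter on dim transcripts, other variance models and fits, a 2-group one-way comparison, another threshold and each array left out. The number of arrays limits the precision.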

Additional observations from a re-analysis of the deposited data

Results flagged for a closer look

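Between the sexes, the INV minus REC difference of 3 named transcripts differed by the limma interaction. The female difference less the male one was -2.74 for FBtr0082287, 0.82 for FBtr0074052 and 0.75 for FBtr0079028. With each of the 36 arrays left out, the first was called 36 times and the others 32 times each. In every strain, the mean of each of the 3 was lower in males than in females.

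Between the inversion strains, the difference from REC of 5 named transcripts differed by the contrast of INV2 with INV1, which does not use the REC means. INV2 less INV1 was 1.35 for FBtr0077025, 0.87 for FBtr0076387, 1.11 for FBtr0085450, -1.22 for FBtr0083658 and -1.18 for FBtr0086811. In males the INV2 less INV1 differences were -1.28 for FBtr0083658 (limma adjusted p = 0.0544) and -1.19 for FBtr0086811 (limma adjusted p = 0.0496), and -0.25 and -0.39 without the 3 deviating male arrays, which leaves 1 INV1 array. For FBtr0077025, FBtr0076387 and FBtr0085450 the male differences were 0.19, 0.09 and 0.50, and -0.02, 0.43 and 0.49 without these arrays.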

How the results depend on the processing

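Scaling within a sex or over all arrays and quantile normalization within females left the 4 counts of calls at 293, 28, 690 and 27 (INV, INV1 and INV2 minus REC, and INV2 minus INV1), since the female arrays already shared a distribution. Array weights gave 1646, 616, 1849 and 421, with 807 higher and 839 lower for INV. An adjusted p under 0.05 gave 1398, 191, 2540 and 206. One fit of all 36 arrays gave 31, 4, 137 and 10. The one-way comparison run here, which does not repeat the authors' run, gave 2, 0, 1 and 0. It had 3538, 3141, 4697 and 2326 at an unadjusted p under 0.05. An intensity trend gave 11 for INV1, and the 9 red-eyed arrays alone 18 for INV1 and 82 for INV2 minus INV1. The cause of these moves was not tested. With each array left out the counts ran from 27 to 470, 2 to 36, 160 to 1050 and 11 to 60.

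With the replicate letter as a replicate block the counts were 298, 21, 718 and 27. Of 9 pairs of arrays with the same letter in REC, INV1 and INV2, 3 had residuals correlated over 0.1, and 7 of 18 arrays correlated best with their own letter. Across strains, residuals also correlated at 0.60 for INV2 A with REV2 C and at 0.53 for INV2 B with REV2 B. The fits without a block treat arrays as independent, so their p-values do not account for this.

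Without the 3 deviating male arrays, 0 of the named transcripts were called in males in place of 1 (FBtr0086479, limma adjusted p = 0.0133), and with each male array left out 1 was. Named interactions with sex numbered 1 in place of 3 without these arrays, and 1 to 3 with each array left out. The median sex difference of the 212 and 81 transcripts, 1.08 and 1.10, became 0.48 and 0.53 when all arrays were scaled, and ran from 1.01 to 1.11 and from 1.01 to 1.12 with each array left out. In females, 26 differences of named transcripts under 29 other settings each gave 754 values, of which 0 changed sign and 118 lost the call. Most of these differences were called and without overlap of arrays, so the lack of a sign change was largely fixed by the choice. In males, INV minus REC changed sign without the 3 deviating arrays in FBtr0070490 (-0.04 to 0.30), FBtr0085450 (0.03 to -0.20) and FBtr0100095 (0.11 to -0.01), none of them called. Leave-one-out for males, for the interaction and for the sex difference, and the interaction without 3 male arrays, were chosen after seeing the data. Signal over background could not be measured, since no control probes were used here.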
